A study of Mus musculus with 4 samples.

Results

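The nuclear receptors Nr4a1, Nr4a2 and Nr4a3 and the zinc finger factors Klf2, Klf4, Klf6, Klf10 and Klf13 were followed through single cell RNA-seq of young and aged mouse hematopoietic stem and progenitor cells (HSPCs). The 8 genes were taken by symbol from the 28692 genes listed in each pool, and each symbol had 1 entry per pool. The HSPCs came from the bone marrow of male C57BL/6-CD45.2 mice, were depleted of lineage-positive cells and sorted as cKit+, Sca-1+ and Flt3-, which leaves long-term and short-term stem cells and multipotent progenitors other than the Flt3+ ones. Young mice were 2 to 3 months old and aged mice 17 to 18 months old, no genetic change or treatment is named for either age, and each age is covered by 2 pools of 2 or 3 mice. Pool A of each age was captured and sequenced with 10x v2 chemistry at the HalioDX facility and pool B at the TGML facility, so a pool letter also stands for a facility. The study states that the mice of the 2 letters were collected as separate batches. Facility (also called platform below) and batch of mice therefore cannot be told apart. The pools are the replicates (n = 2 per age) and a pool of mice gives no spread between mice. Titles and source names set the age of each pool, since the free-text notes of 2 of the 4 samples (young B and aged A) give the opposite age.

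Nr4a receptors are orphan nuclear receptors that need no ligand to act and whose genes belong to the immediate-early response, which cells switch on within minutes of growth factors, cAMP, calcium or stress without making new protein. In stem cells of the blood they are known as brakes on proliferation, and in T cells as mediators of tolerance. Krüppel-like factors bind GC-rich and CACCC sequences through zinc fingers at their end. Klf2 holds lymphocytes and endothelium in a resting state and is induced by shear stress, Klf4 restrains the cell cycle through the inhibitor Cdkn1a and favours monocyte fate, Klf6 is an injury- and stress-induced regulator, Klf10 is an early target of TGF-beta, and Klf13 acts in lymphocyte and erythroid maturation.

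On the GRCm38 build (GENCODE vM21), Nr4a1 (ENSMUSG00000023034) lies at chr15:101254269-101274795 on the plus strand and Nr4a2 (ENSMUSG00000026826) at chr2:57106830-57124003 on the minus strand. Nr4a3 (ENSMUSG00000028341) is at chr4:48045153-48086447 on the plus strand, and the longest annotated transcript of each receptor has 8 exons. The Klf genes are spread over chromosomes as well, with Klf2 (ENSMUSG00000055148) at chr8:72319033-72321656 (plus), Klf4 (ENSMUSG00000003032) at chr4:55527143-55532466 (minus), Klf6 (ENSMUSG00000000078) at chr13:5861482-5870394 (plus), Klf10 (ENSMUSG00000037465) at chr15:38291463-38300706 (minus) and Klf13 (ENSMUSG00000052040) at chr7:63886351-63938915 (minus).

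The promoters of the 3 receptors are shown because they share a sequence, and that of Klf2 because it does not hold it in such number. RefSeq promoters (GRCm38.p6) were found for 7 of the 8 genes (none for Klf10), and the 250 bases before each start were searched on both strands for the core of the cAMP response element, TGACG, which reads CGTCA on the other strand. Bases of any annotated exon were left out of what is printed. The windows, 5′ to 3′ on the strand of the gene and with TGACG or CGTCA in capitals, are chr15:101266596-101266845 (plus) for Nr4a1, which lies inside the annotated gene ahead of the start used by RefSeq, chr2:57124004-57124253 (minus) for Nr4a2, chr4:48045055-48045152 (plus) for Nr4a3, where 3 of its 4 matches lie, and chr8:72318812-72319032 (plus) for Klf2.
Nr4a1: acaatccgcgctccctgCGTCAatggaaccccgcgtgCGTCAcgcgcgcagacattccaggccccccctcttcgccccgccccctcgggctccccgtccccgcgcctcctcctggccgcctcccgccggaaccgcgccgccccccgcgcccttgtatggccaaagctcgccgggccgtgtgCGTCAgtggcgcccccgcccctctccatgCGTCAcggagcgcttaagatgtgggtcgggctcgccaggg
Nr4a2: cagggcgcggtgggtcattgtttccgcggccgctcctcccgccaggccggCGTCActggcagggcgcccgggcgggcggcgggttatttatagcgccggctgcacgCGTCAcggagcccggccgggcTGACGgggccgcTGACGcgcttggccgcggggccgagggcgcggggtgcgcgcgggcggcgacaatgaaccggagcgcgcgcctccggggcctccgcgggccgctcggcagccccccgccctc
Nr4a3: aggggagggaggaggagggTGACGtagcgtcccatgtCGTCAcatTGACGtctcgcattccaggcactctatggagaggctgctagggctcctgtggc
Klf2: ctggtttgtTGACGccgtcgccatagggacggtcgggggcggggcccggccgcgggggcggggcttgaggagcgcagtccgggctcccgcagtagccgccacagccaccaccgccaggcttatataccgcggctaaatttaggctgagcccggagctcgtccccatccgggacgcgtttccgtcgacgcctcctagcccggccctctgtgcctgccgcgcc
Each of the 3 Nr4a promoters held 4 matches, a number reached by 45 of 32851 promoters (0.137%) and by 25 of the 6219 (0.402%) whose GC content lies within the range of the 3 receptors, whereas 17.8% of promoters held at least 1. Klf2, Klf4 and Klf13 had 1 match each and Klf6 had 0. The palindromic element TGACGTCA, which contains the core, occurred in 1.55% of all promoters, the AP-1 motif TGANTCA in 6.75% and the CArG box of serum response factor in 1.47%, and none of the 7 promoters matched any of these 3. The GC box GGGCGG (32.7% of all promoters) had 1 to 4 matches in each of the 7 promoters. All 7 windows were GC-rich, at 63.6% to 80.0%, which puts them at or above the 80th percentile of promoters. A match describes the letters of the window only.

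The libraries were compared before the levels of the members. Kept cells numbered 5189 and 2244 in young A and young B and 3328 and 4154 in aged A and aged B (14915 of 15566 barcodes, at most 26 barcodes shared by any pair of pools), with 16399999 to 36446168 UMIs per pool and a median of 5674 to 6719 UMIs per cell. The study gives more reads per cell for aged A and young B than for young A and aged B. Sequencing depth thus ran in opposite directions with age at the facilities. Aged A stood apart in immediate-early transcripts. The summed level of 23 immediate-early genes other than the members was 1838 and 682 CPM (the UMIs of a gene scaled to the library size of its pool) in young A and young B, 5777 CPM in aged A and 1384 CPM in aged B. Lists of markers of other cell types were at 4.30 to 8.13 CPM for 6 mature neutrophil genes, 7.65 to 13.7 CPM for 6 stromal genes, 45.7 to 49.6 CPM for 6 mature B cell genes, 143 to 175 CPM for 6 endothelial genes and 345 to 478 CPM for 8 macrophage or monocyte genes, and stem cell markers were present in every pool (777 to 1430 CPM over 10 genes). Ms4a1, Ighd, Cd8a, Gzma, Adgre1, Retnlg, Cdh5, Plvap and Lepr, each specific to a mature or non-blood cell type, were at 0 in at least 1 pool, and no listed marker was at 0 in all 4. The T or NK cell list was at 116 to 239 CPM and the 8 B lineage genes of the list named pL2 reached 1183 CPM in aged A against 252 to 467 CPM in the other pools. Most of the endothelial, macrophage or monocyte, mature B cell and T or NK cell sums came from 1 gene each. These were Egfl7 (139 to 165 CPM), Lyz2 (323 to 459 CPM), Cd79b (41.8 to 47.4 CPM) and Nkg7 (79.9 to 233 CPM). Cdh5 and Csf1r of the first 2 lists were at most at 0.357 and 1.26 CPM. The part of immediate-early level, facility, batch of mice, sequencing depth and stray cell types in the results below was not tested beyond the values given beside them.

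Nr4a1 and Nr4a2 rose with age, while Nr4a3 was too scarce to test. Nr4a1 had 350 UMIs in young A, 21 in young B, 2179 in aged A and 269 in aged B, which are levels of 9.60, 1.28, 104.8 and 8.08 CPM. Aged A thus stood far above the other 3 pools, and aged B lay above young B but just below young A, so the ages overlapped. Within platforms the aged level was 10.9 times the young one on A and 6.31 times on B. Nr4a2, the receptor best known from dopaminergic neurons, had 133 and 15 UMIs in young A and young B and 957 and 218 in aged A and aged B (3.65, 0.915, 46.0 and 6.55 CPM). Both aged pools were above both young pools, 12.6-fold on platform A and 7.16-fold on platform B. Nr4a3 was hardly detected, with 4, 1, 29 and 4 UMIs in young A, young B, aged A and aged B (0.110, 0.0610, 1.40 and 0.120 CPM).

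**Figure D1:**
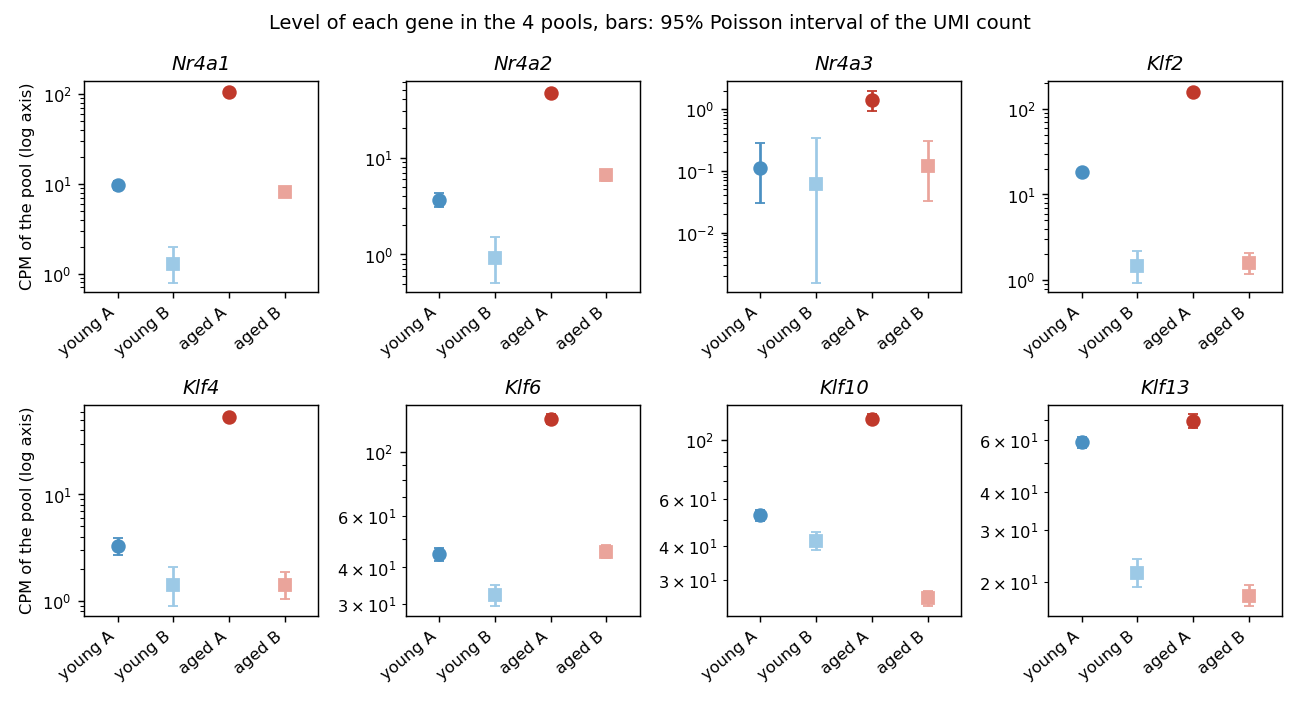
Level of each of the 8 genes in CPM (log axis) in young A and young B and aged A and aged B, 1 point per pool, with bars for the 95% Poisson interval of its UMI count, which covers counting error only. Aged A has the highest point in every panel, from 1.40 CPM for Nr4a3 to 157.2 CPM for Klf2.

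With counts summed per pool, platform as a block and the quasi-likelihood test of edgeR, Nr4a1 was higher in aged HSPCs by a log2 fold change of 3.08 (SE 0.23, Benjamini-Hochberg adjusted p = 0.0140) and Nr4a2 by 3.28 (SE 0.26, adjusted p = 0.0140). They were the 2 members called among the 7 tested, where 275 of 13555 genes (2.03%) were called, 1.6% of all genes in the upward direction, and the median log2 fold change of all genes was 0.01. The calls hung on the pools and on the block. With 1 pool left out, in fits that have no block and so let a facility difference in, Nr4a1 ranged from 0.73 (without aged A) to 5.11 (without young A) and Nr4a2 from 1.64 (without aged A) to 4.52 (without young A), and both were called without young A alone. With all pools and no block the estimates were 3.22 and 3.36 with adjusted p of 0.648 and 0.421. In sums over a pool, more cells with a transcript and more transcript per cell cannot be told apart, so shares of cells are given further on.

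Klf2 and Klf4 were highest in aged A and nearly equal at both ages on platform B. Klf2 was at 18.3 and 1.46 CPM in young A and young B and at 157.2 and 1.59 CPM in aged A and aged B (666, 24, 3268 and 53 UMIs). On platform A the aged level was 8.60 times the young one, and on platform B it was 1.09 times. Both pools of platform A lay above both of platform B for this gene. Klf4 had 3.27, 1.40, 53.3 and 1.41 CPM in young A, young B, aged A and aged B (119, 23, 1109 and 47 UMIs), 16.3-fold higher with age on platform A and 1.01-fold on platform B. Their log2 fold changes of 1.98 (SE 0.69, adjusted p = 0.266) and 2.45 (SE 0.98, adjusted p = 0.325, edgeR) were not called. Without aged A the estimates turned to -2.46 for Klf2 and -0.60 for Klf4, and without young A both were called, at 5.39 and 3.92.

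Klf6 was present at over 30 CPM in every pool, with 44.4, 32.1, 129.8 and 45.4 CPM in young A, young B, aged A and aged B. Both aged pools were above both young pools, although aged B and young A were close. The ratio of aged to young was 2.92 on platform A and 1.42 on platform B, and the log2 fold change of 0.98 (SE 0.26, adjusted p = 0.159, edgeR) was not called. Of the 7 tested members, 2 (Nr4a2 and Klf6) had non-overlapping ages with both aged pools on top, as 18.1% of all tested genes had, and 0 had both aged pools below, as 13.6% had.

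For Klf10 and Klf13 the platforms gave opposite directions. Klf10 was at 52.2 and 41.9 CPM in young A and young B and at 119.9 and 25.5 CPM in aged A and aged B, hence 2.30-fold with age on platform A and 0.609-fold on platform B. Klf13 was at 58.9, 21.5, 69.4 and 18.0 CPM in the same order, 1.18-fold on A and 0.837-fold on B. The fitted log2 fold changes were 0.20 (SE 0.44, adjusted p = 0.883) for Klf10 and -0.06 (SE 0.17, adjusted p = 0.920, edgeR) for Klf13. The value of Klf13 turned to 0.015 without the block and ran from -1.01 to 0.74 with 1 pool left out (-1.01 without aged A, 0.74 without young A and 0.60 without aged B), and that of Klf10 turned to -0.76 without aged A.

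**Figure D2:**
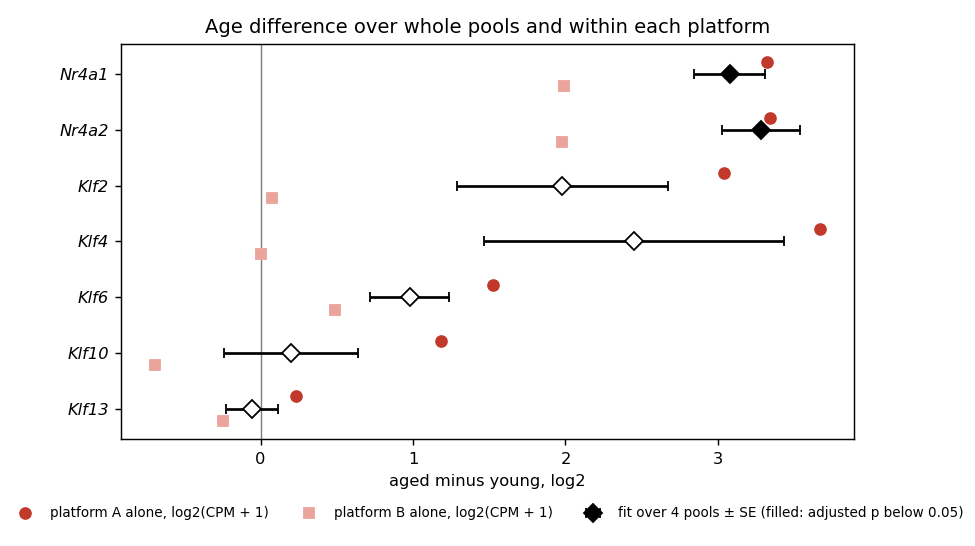
Log2 difference between aged and young for the 7 tested genes, as the fit over 4 pools with its SE (diamonds, filled where the adjusted p was below 0.05) and as the difference of log2(CPM + 1) within platform A and within platform B. Nr4a1 and Nr4a2 carry the filled diamonds, at 3.08 and 3.28, and for Klf2 and Klf4 the platform A value lies far to the right of a platform B value near 0.

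Levels of the members also differed between the letters A and B, which stand for both a facility and a batch of mice. Of the 7 tested members, 4 were lower on platform B in the other term of the same fit, a comparison added after the data had been seen, namely Klf2 (log2 difference B minus A -5.09, SE 0.74, adjusted p = 0.0254), Nr4a1 (-3.12, SE 0.23, adjusted p = 0.00938), Nr4a2 (-2.24, SE 0.25, adjusted p = 0.0154) and Klf13 (-1.44, SE 0.18, adjusted p = 0.0178, edgeR). Among all genes 7.6% were called for platform, 7.44% in the same direction. Klf4 (-3.29, adjusted p = 0.122), Klf10 (-1.02, adjusted p = 0.214) and Klf6 (-0.74, adjusted p = 0.156) were not called. The ratio of A to B was wider in aged than in young pools for every member, such as Klf2 (98.7 against 12.5), Klf4 (37.8 against 2.33), Nr4a1 (13.0 against 7.5) and Klf10 (4.70 against 1.25). It changed least for Klf13 (3.85 against 2.73). Both pools of platform A lay above both of platform B for Nr4a1, Klf2, Klf4, Klf10 and Klf13, as they did for 44.4% of all tested genes. Aged A was the highest pool for all 7 tested members, against 48.1% of genes, and at least 2 times any other pool for 6 of them (not Klf13), against 4.17% of genes.

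Counted as thinned cells rather than UMIs, transcripts of Nr4a1, Nr4a2, Klf2 and Klf4 were seen in under 5% of cells of every pool but aged A. Nr4a3 was seen in under 5% in every pool, whereas Klf6, Klf10 and Klf13 were seen in more than 5% in every pool. After thinning every cell to 3000 UMIs, Nr4a1 was seen in 109 of 5189 cells of young A (2.10%, exact 95% interval 1.73% to 2.53%), 9 of 2194 of young B (0.410%, 0.188% to 0.777%), 562 of 3152 of aged A (17.8%, 16.5% to 19.2%) and 80 of 4150 of aged B (1.93%, 1.53% to 2.39%). Nr4a2 was seen in 1.02% and 0.365% of young cells and in 9.04% and 1.98% of aged cells of pools A and B. These intervals cover counting error only. The mean share of Nr4a1-positive cells was 1.26% in young and 9.88% in aged pools (two-sided exact permutation p = 0.667, n = 2 and 2, where 0.333 is the smallest p possible), 15.7 percentage points higher with age on platform A and 1.52 on platform B. For Nr4a2 the means were 0.693% and 5.51% (exact permutation p = 0.333), higher by 8.02 points on A and 1.61 on B. Nr4a3 was seen in 1, 0, 7 and 2 cells of young A, young B, aged A and aged B, and 0 of 2194 cells allows a share of cells with a UMI, at 3000 UMIs per cell, of up to 0.137% (3 cells of the total, where the exact 95% limit is 0.168%). That is no limit on the cells that express the gene.

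Klf2-positive cells made up 4.61%, 0.456%, 21.9% and 0.386% of young A, young B, aged A and aged B, and Klf4-positive cells 0.848%, 0.273%, 9.90% and 0.458%. Aged A was thus the only pool with more than 5% of thinned cells for either gene. On counts as deposited, Klf2 was also seen in 8.19% of young A cells. Klf6, Klf10 and Klf13 were seen in a share of cells that ran from 5.47% (Klf13, aged B) to 28.1% (Klf10, aged A). The change on platform B was 2.86 points for Klf6, -4.12 for Klf10 and -1.0 for Klf13. For the 5 Klf genes the two-sided exact permutation p of the mean shares, 2 pools against 2, was 0.667 to 1. No cell type of these pools is known to lack the members, so a level of free RNA could not be set. As a lower reference, Klf4 was at 2.64 CPM in pNeu-like cells of aged A, where cluster 1 had 98.4 CPM.

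Several members were seen in the same cells of aged A. There, 263 of 3152 thinned cells (8.34%) held at least 4 of the 8 members, against 13 cells in young A (0.251%), 2 in aged B and 0 in young B. No member was seen in 34.4% of aged A cells, 56.9% of young A cells and 74.1% and 74.3% of aged B and young B cells. Nr4a1 and Nr4a2 were seen together in 138 cells of aged A, where their separate shares would give 50.8, and in 8 cells of young A, where they would give 1.11. In aged A, Nr4a1 and Klf2 were seen together in 242 cells (123.2 from the shares) and Nr4a1 and Klf13 in 128 (95 from the shares), so the excess was smaller for Klf13. In young A the latter pair was seen together in 19 cells (18.9 from the shares), and Nr4a2 and Klf10 in 7 (8.14 from the shares). Cells of 1 pool share a library, so these counts are a description of each pool.

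In aged A, most UMIs of 5 of the 7 tested members lay in cells rich in other immediate-early transcripts, for which cells with more than 20 UMIs of the 23 genes after thinning were set apart, a limit chosen after the data had been seen. Such cells were 2.08% of young A, 0.0912% of young B, 26.0% of aged A and 1.06% of aged B. The limit is the same in every pool. The median count was 5 and 2 UMIs in young A and young B and 8 and 3 in aged A and aged B. An immediate-early class from an alternative clustering held 5.53% of young A and 3.65% of young B. It held 13.8% of aged A and 12.6% of aged B. In aged B it had 522 cells, against 44 over the limit, so removing the latter left most of it in place. In aged A the 818 cells over the limit held 81.2% of Nr4a1 UMIs, 79.6% of Nr4a2, 75.9% of Klf2, 86.5% of Klf4, 64.4% of Klf6, 42.5% of Klf10 and 36.9% of Klf13. The share was lower elsewhere, at 27.7% (young A), 0% (young B) and 25.7% (aged B) for Nr4a1 and 10.8%, 0.481% and 3.59% for Klf6. In cells of that kind Nr4a1 had 97.7 UMIs per 100 cells in aged A, 38.0 in young A and 59.1 in aged B (44 cells), and Klf2 had 133.1, 41.7 and 6.82. Klf2 was thus lower in aged B than in both pools of platform A, and Nr4a2 had 39.98 UMIs per 100 cells in aged A, 36.4 in aged B and 6.48 in young A. The group has no upper limit, and its immediate-early content was not matched between pools (the 90th percentile over all cells was 44 UMIs in aged A, 11 in young A and 9 in aged B). With all cells over the limit removed, Nr4a1 was at 7.02, 1.52, 26.4 and 6.09 CPM and Nr4a2 at 3.35, 1.22, 11.997 and 6.01 CPM in young A, young B, aged A and aged B. Both were still called with age, at log2 fold changes of 1.90 (SE 0.25, adjusted p = 0.0220) and 1.96 (SE 0.31, adjusted p = 0.0387, edgeR), and Klf2 (0.91), Klf4 (1.20), Klf6 (0.41), Klf10 (0.02) and Klf13 (-0.24) were not. That fit called 239 of 12248 genes. The remaining cells of aged A still held more of all 7 tested members than those of aged B.

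**Figure D3:**
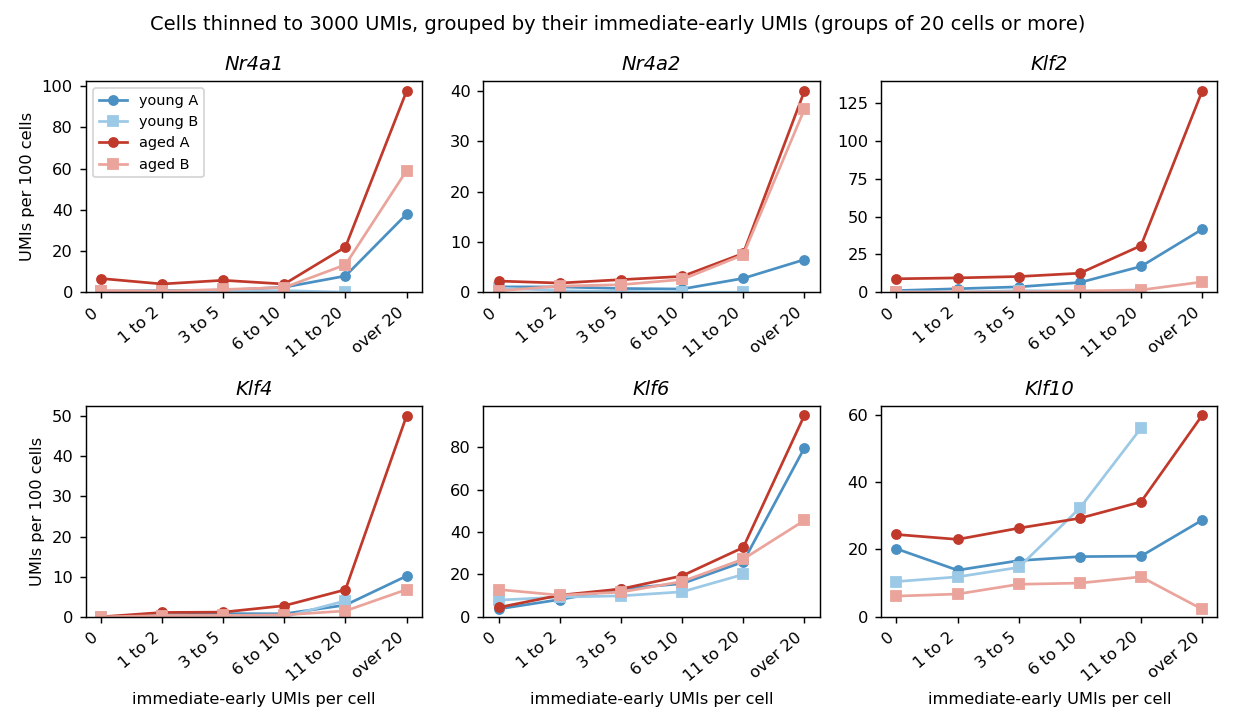
UMIs of Nr4a1, Nr4a2, Klf2, Klf4, Klf6 and Klf10 per 100 cells (cells thinned to 3000 UMIs) against the number of immediate-early UMIs in the cell, 1 line per pool, for groups of at least 20 cells. Lines for Nr4a1, Nr4a2, Klf2 and Klf4 climb most in the group over 20 UMIs, to 97.7, 39.98, 133.1 and 50.1 UMIs per 100 cells in aged A.

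Across the rebuilt classes of cells the members had distinct distributions. The members were left out of the genes used for clustering, and classes were named from marker lists (pEr-, pMk-, pMast-, pNeu-, ifn-, rep- and div-like for erythroid, megakaryocyte, mast cell and neutrophil priming, interferon response, DNA replication and division) or numbered. A name needed enough markers of a list above their level in other cells, at least 1 of them among the 10 leading genes. Cluster 1 had enough raised immediate-early markers but none among its 10 leading genes, so it was numbered. Levels were taken as the log2(CPM + 1) of the class minus that of its whole pool, as mean ± SD over 4 pools. Cluster 1, led by Cldn5, Ramp2 and Gpr183 and with Klf2 itself among its 10 leading genes, was the highest of 12 classes for Nr4a2 (0.50 ± 0.36), Klf2 (0.87 ± 0.59), Klf4 (0.72 ± 0.32) and Klf6 (0.61 ± 0.15). For Nr4a1, clusters 1 (0.66 ± 0.53) and 4 (0.64 ± 0.57) were alike at the top, each above its pool in 3 of 4 pools. In cluster 1 Klf6 was at 75.4 and 44.5 CPM in young A and young B and at 214.3 and 64.5 CPM in aged A and aged B, above its pool in all 4. For Klf10 clusters 4 (0.34 ± 0.06) and 1 (0.34 ± 0.08) were alike at the top. Klf13 differed from the other members in being highest in cluster 5 (0.54 ± 0.28) and in the mast cell- and erythroid-primed classes (0.34 ± 0.13 and 0.30 ± 0.40).

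At the low end, Klf6 was lowest in pEr-like cells (-1.69 ± 0.51) and Klf10 in pMk-like cells (-1.77 ± 0.64). Klf4 was lowest in pMast-like cells (-1.67 ± 0.47), on 0, 0, 3 and 0 UMIs in young A, young B, aged A and aged B. Where a class has no UMI the value only mirrors the level of the pool, so this place is at the floor. Nr4a1 was low in pEr-like cells as well (-2.02 ± 0.91), with 2.96, 0, 20.5 and 0 CPM in young A, young B, aged A and aged B. Most neighbours in these orders did not differ by more than their spread. The gap between adjacent classes exceeded the larger of their SDs in 1 of 11 neighbouring pairs for Nr4a1, 0 for Nr4a2, Nr4a3 and Klf13, 1 for Klf2 and 2 each for Klf4, Klf6 and Klf10. The order is a description, since all classes of a pool share its library.

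**Figure D4:**
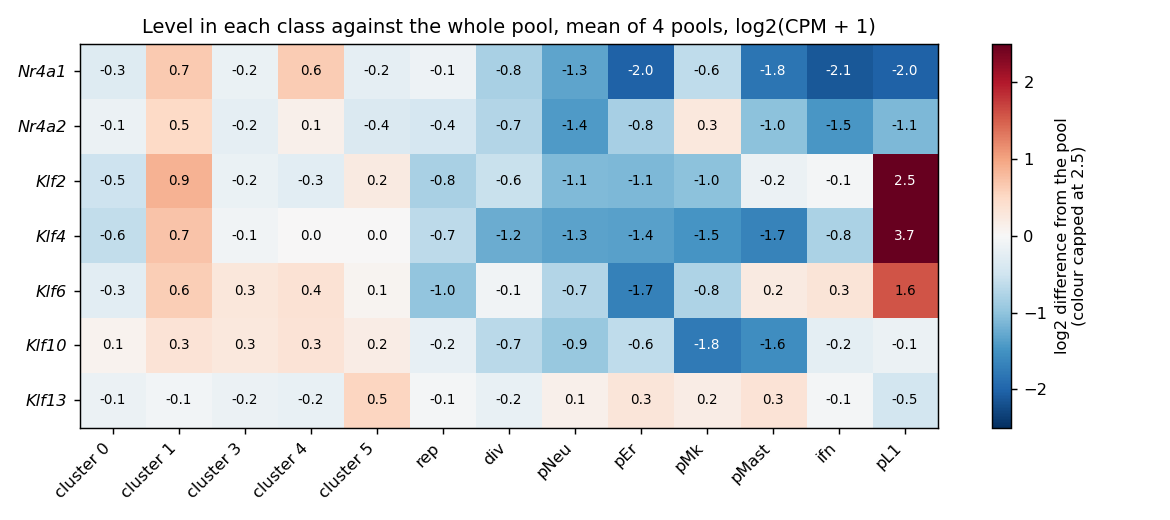
Heat map of the level of each gene in each class as the difference from the whole pool in log2(CPM + 1), mean of 4 pools, with colour capped at 2.5. Cluster 1 is highest for Nr4a2, Klf2, Klf4 and Klf6 among classes with enough cells and close to cluster 4 for Nr4a1, and Klf13 is nearly flat across them.

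Nr4a1 was higher with age in most classes in which it was tested. It was called in 6 of 7 tested classes (log2 fold changes of 2.31 to 3.45 over the 7), with the div-like class at 2.31 (adjusted p = 0.199) not called. In each called class young A lay above aged B, so the ages overlapped. For example, these pools were at 23.8 and 13.9 CPM in cluster 1 and at 8.74 and 8.24 CPM in rep-like cells. Young B had 1 to 6 Nr4a1 UMIs in each of the called classes. Nr4a2 was called in 3 of 4 classes, at 4.05 in cluster 1 (SE 0.33, adjusted p = 0.000515), 3.99 in cluster 4 (adjusted p = 4.59e-05) and 1.88 in rep-like cells (adjusted p = 0.0445), and stood at 3.51 in cluster 0 (adjusted p = 0.0674). Klf2, not called over whole pools, was called in 3 of 7 classes (2.33 in cluster 1, 2.93 in cluster 3 and 2.60 in cluster 4) and Klf4 in both classes where it was tested (3.04 in cluster 1 and 2.67 in rep-like cells). On platform B Klf4 was not higher in aged cells of either class, at 2.41 (young) and 2.22 CPM (aged) in cluster 1 and 0.560 and 0.499 CPM in rep-like cells. On platform B Klf2 went from 1.81 (young) to 3.08 CPM (aged) in cluster 1 and from 0.659 to 1.59 CPM in cluster 3. Young A was at 55.2 and 17.7 CPM in these 2 clusters, so the ages overlapped. Klf2 in cluster 4 went from 2.43 to 0 CPM on platform B, and with DESeq2 its value there was -0.81 (adjusted p = 0.9999). Klf6 was called in 0 of 12 classes (-0.17 to 1.21), Klf10 in 0 of 11 and Klf13 in 0 of 12 by edgeR. At an unadjusted p below 0.05, Klf6 passed in 6 classes and Klf10 and Klf13 in 0. In these 6 classes the share of all genes at that p ran from 294 of 6111 (pMk-like) to 1439 of 11445 (cluster 0). In all, 14 of 55 pairs of a class and a member were called by edgeR, against 1.26% of all gene and class pairs tested. The low-count filter shapes this count, because Nr4a1, Klf2 and Klf4 passed it in each of these classes with 1 young pool above the limit and Nr4a2 with at most 1, whereas Klf6 and Klf13 passed with both young pools in 10 of 12 classes. Klf2 in clusters 3 and 4 and Klf4 in cluster 1 and rep-like cells passed with young A and aged A alone, with no pool of platform B above the limit. The class in which Nr4a2 passed with neither young pool above the limit is cluster 4 (3.59, 0.608, 62.2 and 8.60 CPM in young A, young B, aged A and aged B), so its value there had to be upward. Without aged A no pair was called, and Klf2 in cluster 1 was then at -3.02.

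A few classes differed from the other cells of their pools in the size of the age difference. Of 88 pairs of a class and a member 6 were called (1.25% of all gene and class pairs), each with a lower value in the class than in the other cells. In rep-like cells the difference was -1.87 for Nr4a2 (SE 0.37, adjusted p = 0.00245) and -1.24 for Klf2 (SE 0.23, adjusted p = 0.00112). In div-like cells Klf6 differed by -1.16 (SE 0.20, adjusted p = 5.93e-06), where it was at 58.2 and 47.8 CPM in young A and young B and at 54.5 and 42.8 CPM in aged A and aged B. In that class each aged pool lay just below the young pool of its own platform, and the ages overlapped. Klf6 also differed in pMast-like cells (-1.37, adjusted p = 0.0492, edgeR), at 112.1, 27.8, 96.4 and 51.3 CPM in young A, young B, aged A and aged B. On platform B its log2 difference from the whole pool went the other way, from -0.20 (young) to 0.17 (aged), on 9 UMIs per pool. The others were Klf10 in pEr-like cells (-0.99, adjusted p = 0.0235) and Klf4 in pNeu-like cells (-3.91, adjusted p = 0.0119, edgeR). Without aged A none was called.

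Stem-type and Cd48-positive cells were compared with gates that use none of the members. The stem-type gate took cells with a UMI of Procr or Slamf1 and none of Cd48 after thinning (1380, 688, 1485 and 2090 cells in young A, young B, aged A and aged B), and the Cd48 gate cells with Cd48 and neither of the others (608, 230, 132 and 69 cells). Nr4a1 was at 12.1, 2.52, 122.1 and 9.02 CPM in the stem-type gate and at 5.67, 1.91, 42.6 and 0 CPM in the Cd48 gate, higher in the stem-type gate in all 4 pools. Klf10 was at 63.4, 51.5, 136.7 and 28.2 CPM against 35.2, 34.8, 73.0 and 7.96 CPM, also higher in all 4. Among 10943 genes, edgeR with the pool as a block called 37.8%, and 19.0% of all tested genes were called as higher in the stem-type gate. The members called were Nr4a1 (log2 difference 1.28, SE 0.22, adjusted p = 0.000783), Klf10 (0.79, SE 0.12, adjusted p = 0.000333), Klf6 (0.64, SE 0.11, adjusted p = 0.000681) and Klf2 (0.65, SE 0.16, adjusted p = 0.00656), 4 of the 7 tested. Nr4a2 (0.48, adjusted p = 0.291), Klf4 (0.13, adjusted p = 0.891) and Klf13 (-0.08, adjusted p = 0.701) were not called. On platform B Klf2 was lower in the stem-type gate, at 0.916 and 1.83 CPM in young B and aged B against 1.43 and 3.19 CPM in the Cd48 gate. The call of Klf2 was lost without aged A (0.61, adjusted p = 0.144), without young A (0.55, adjusted p = 0.0902) and with DESeq2 (adjusted p = 0.336). Klf4 was lower in the stem-type gate without aged A (-1.53, adjusted p = 0.0492), and Nr4a2 was higher without young A (1.04, adjusted p = 0.0368, edgeR).

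Age was then tested within each gate. In the stem-type gate, where 1.66% of genes were called, Nr4a1 (2.82, SE 0.35, adjusted p = 0.0229), Nr4a2 (3.85, SE 0.32, adjusted p = 0.00928) and Klf2 (2.65, SE 0.36, adjusted p = 0.0336, edgeR) were higher in aged cells. Klf2 in that gate was at 23.0, 0.916, 182.6 and 1.83 CPM in young A, young B, aged A and aged B, so the ages overlapped and both levels on platform B were low. With 1 pool left out its value ran from -2.53 (without aged A) to 6.27. In the Cd48 gate edgeR called 0.0228% of genes and 0 of the 5 members tested. Of these members 3 had an unadjusted p below 0.05, as had 357 of the 8787 genes. The age difference itself was smaller in Cd48 cells than in the other cells of the pools for Nr4a2 (-1.55, SE 0.46, adjusted p = 0.0226) and Klf4 (-2.29, SE 0.43, adjusted p = 1.13e-05, edgeR), a test that called 4.32% of genes. For Klf4 this turned to 2.17 without aged A (adjusted p = 0.111). For the stem-type gate the same test called 0.462% of genes and 0 of 8 members. Of these members 1 (Nr4a2) had an unadjusted p below 0.05, as had 1090 of 12990 genes.

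Because these factors are known for holding cells out of cycle, their levels were compared between cells called G2/M and G1 with cyclone. Between 88.2% and 94.8% of cells of a pool were called G1 and 3.91% to 8.58% G2/M. Klf10 was at 55.6, 45.3, 123.7 and 26.7 CPM in G1 and at 31.2, 20.3, 70.9 and 13.1 CPM in G2/M of young A, young B, aged A and aged B, lower in G2/M in every pool. Of 11892 genes, 37.3% were called, 17.6% as lower in G2/M. Klf10 (-0.88, SE 0.09, adjusted p = 9.75e-07), Nr4a2 (-0.91, SE 0.24, adjusted p = 0.00681) and Klf2 (-0.64, SE 0.20, adjusted p = 0.0190, edgeR) were lower in G2/M, while Klf4 (-0.69, adjusted p = 0.149) and Klf13 (-0.22, adjusted p = 0.0714) were not called. Nr4a1 is 1 of the 667 genes cyclone reads, so its difference of -1.11 is a description. With phases from Seurat scoring, which does not read it, it was -1.38 (adjusted p = 0.000114, edgeR). Without aged A, Klf10 stayed at -0.94 (adjusted p = 1.60e-05), Klf2 was at 0.0022 and Nr4a2 at -0.44, the last 2 not called. With DESeq2 Klf10 alone of these 3 was called, and Nr4a1 was at -1.12, again as a description.

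Klf4 and Klf6 were each higher in G2/M than in G1 in 3 pools and lower in aged A. Klf4, at low levels outside aged A, was at 3.32, 1.34, 56.3 and 1.35 CPM in G1 of young A, young B, aged A and aged B. In G2/M it was at 3.87, 2.62, 14.4 and 2.69 CPM in the same order. Klf6 was at 42.9, 30.3, 134.7 and 45.8 CPM in G1 and at 61.3, 53.7, 66.4 and 48.4 CPM in G2/M of these pools. Over 4 pools the log2 difference of Klf6 was 0.13 (SE 0.18, adjusted p = 0.598), and without aged A it was 0.45 (adjusted p = 0.00729, edgeR). With phases from Seurat scoring Klf6 was at -0.30 (adjusted p = 0.199). Klf4 was called as lower in G2/M with those phases (-1.26, adjusted p = 0.0200, edgeR), unlike with cyclone phases (-0.69, adjusted p = 0.149).

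**Figure D5:**
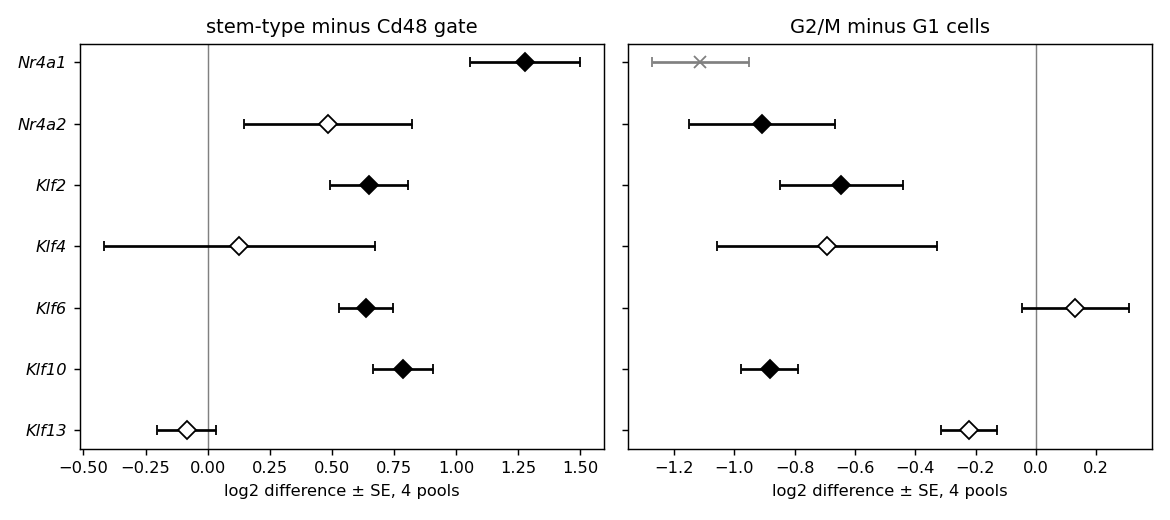
Log2 differences with their SE over 4 pools, stem-type against Cd48 gate on the left and G2/M against G1 on the right, filled diamonds where the adjusted p was below 0.05 and a grey cross for Nr4a1 in the phase comparison, which reads this gene. Klf10 lies apart from 0 in both panels, at 0.79 and -0.88, and Klf13 lies near 0 in both, at -0.08 and -0.22.

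The genes around the members were counted from lists. Of 23 immediate-early genes, 22 were tested, all 22 had a positive log2 fold change with age and 5 were called, with a median of 1.20, where 2.03% of all genes were called with age. These were Cyr61, a matricellular protein (6.79, adjusted p = 0.00691), Atf3, a stress-induced factor (5.54, adjusted p = 0.0140), Socs3, an inhibitor of cytokine signalling (2.76, adjusted p = 0.0369), Dusp1, a MAP kinase phosphatase (2.17, adjusted p = 0.0337) and Maff, a small Maf protein (1.57, adjusted p = 0.0499, edgeR). For the same list, 15 of 22 genes were lower on platform B, as 7.44% of all genes were. Of the 13 tested genes of the Klf family, members included, 0 were called with age by edgeR (median 0.20) and 5 were lower on platform B. At an unadjusted p below 0.05 with age, 16 of the 22 immediate-early genes and 4 of the 13 Klf genes passed, as did 2175 of all 13555 genes.

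The other lists are read against the same 2.03% and, at an unadjusted p below 0.05, against the same 2175 of 13555 genes. Of 17 signalling genes that lead to Nr4a and Klf induction (such as the CREB, SRF, MEF2, NFAT and TGF-beta genes, median 0.04), edgeR called 0, with 1 at an unadjusted p below 0.05. Of 9 tested partners (such as the RXR receptors and the Sin3 and HDAC corepressors, median -0.02) it called 0, with 0 at that unadjusted p. Of 9 genes described as targets, such as Cdkn1a and S1pr1, 7 had an unadjusted p below 0.05 (edgeR). A positive log2 fold change was seen for 5 of the 9 (median 0.47). After adjustment 1 was called, and it fell. Cebpa, the master regulator of granulocyte fate, was at 25.4, 2.74, 9.52 and 0.841 CPM in young A, young B, aged A and aged B (-1.59, SE 0.20, adjusted p = 0.0346, edgeR). Of 17 regulators of quiescence 1 rose, Ndn, a growth suppressor of the necdin type, at 34.8, 37.1, 84.7 and 96.4 CPM (1.28, adjusted p = 0.0369). At an unadjusted p below 0.05, 8 of the 17 passed in edgeR, and 14 had a positive log2 fold change (median 0.48). Of the genes that the study assigned to its Klf10 and Klf13 regulons on these cells, 0 of 22 and 1 of 41 were called (6 and 11 at an unadjusted p below 0.05). The 1 called, Dnm3, a dynamin family GTPase, rose by 5.32 (adjusted p = 0.00563, edgeR), and a list derived from these samples is not independent evidence.

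Likeness of pattern was measured as Pearson's r of log2 CPM over 49 sums of a class and a pool, among 5525 genes, those above a mean of 20 CPM and the 8 members at any level. Nr4a1 was most like Nr4a2 (0.90), Hes1 (0.88) and Jchain (0.85). Hes1, a Notch target, was at 291.0 CPM in aged A and 2.74 to 6.997 CPM in the other pools, and was not called with age (3.20, adjusted p = 0.337, edgeR). Nr4a2 was next most like Rock2 (0.82) and Dusp1 (0.80). Klf2 was most like Jund (0.92), Ddx5 (0.91) and Serinc1 (0.90), and Klf4 like Fos (0.87), Zfp36 (0.86) and Klf2 (0.85). Immediate-early genes were thus among the 3 nearest for Nr4a2, Nr4a3, Klf2, Klf4 and Klf6 (Stx7 0.87, Zfp36 0.83, Id2 0.81). For Nr4a3 the values were lower (Klf4 0.64, Jmjd1c 0.62, Dusp1 0.62), at a mean of 0.425 CPM. Klf10 had other neighbours, Txnip, Sfxn3 and Rps27 (0.82 each), as had Klf13, with Rac1, Srsf2 and Selt (0.91 each). The sums of a pool share its library, facility and depth, so these values describe a pattern only.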

How the data were processed

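For each pool the authors deposited unnormalized UMI counts of every gene in every barcode, made with Cell Ranger 2.2.0 on mm10 (GRCm38.p4, per the labels). No source used here names the annotation release. Cells whose log UMI count lay over 2 SD from their pool's mean were removed, and doublets were not removed. Counts summed per pool were tested with edgeR 4.0.16 (TMM, filterByExpr, quasi-likelihood test, platform letter or pool as a block) in R 4.3.3, with Benjamini-Hochberg adjustment over all genes tested and a threshold of 0.05. Each SE given with an edgeR value was derived from the log2 fold change and the F statistic of its test. It is not a direct measure of the spread between pools. The letter names a facility in the labels, and pools of the same letter deviated together (r = 0.576 over 13555 genes). Classes came from Seurat 5.3.0 integration with the members left out of the variable genes, needed at least 10 cells per pool to be tested, and phases came from cyclone in scran 1.30.0. Shares of cells used cells thinned to 3000 UMIs, which left out 0 to 176 cells per pool, and exact permutation tests. DESeq2 1.42.0, other filters, gates, phases and clusterings and leaving out each pool were the alternatives. Simulated counts were run through the age fit over whole pools (edgeR and DESeq2), the class by age fit and the paired fit within pools. Age fits within a class or gate and fits with a pool left out were not simulated. The simulated facility differences were smaller than those of Klf2 and Nr4a1, and changes were placed in genes above a minimum count only. Named genes were the members, the called genes of each list (at most 5) and the 3 genes most like each member. The members and lists were chosen with earlier results of these data known. Intervals cover counting error only.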

Additional observations from a re-analysis of the deposited data

Results flagged for a closer look

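For 8 of 103 pairs of a member and a class or gate, the age difference differed from that in the other cells of the same pools in edgeR's test of the difference itself. On the log2 scale it was lower by these amounts: -1.87 for Nr4a2 and -1.24 for Klf2 in rep-like cells, -1.16 for Klf6 in div-like cells, -1.37 for Klf6 in pMast-like cells, -0.99 for Klf10 in pEr-like cells, -3.91 for Klf4 in pNeu-like cells, and -1.55 for Nr4a2 and -2.29 for Klf4 in Cd48-positive cells. The same test called 1.25% of all gene and class pairs, 4.32% of genes for the Cd48 gate and 0.462% for the stem-type gate. The Klf4 value in pNeu-like cells rests on levels of 2.64 CPM or less in every pool of that class. Klf6 had 9 UMIs in pMast-like cells of each pool of platform B. With 1 pool left out, the value of Klf4 in Cd48-positive cells ran from -2.96 to 2.17, and the other listed pairs kept their sign. That of Klf2 in rep-like cells ran from -1.28 to -0.096 and that of Klf6 in pMast-like cells from -1.77 to -0.12.

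For Klf10 and Klf13 the platforms moved in opposite directions with age. The aged minus young difference was 1.19 (A) and -0.69 (B) for Klf10 and 0.23 (A) and -0.24 (B) for Klf13, as log2(CPM + 1) with 1 pool per age on each platform. The difference between platforms was not tested.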

How the results depend on the processing

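Of the results for single members, under alternatives other than leaving out a pool, 114 kept their direction and side of the threshold, 28 lost the call, 1 gained it, 1 share moved and 4 reversed. Those that reversed were Klf13 with age without the replicate block (0.015), Klf4 between gates with DESeq2 (-0.80), Klf2 with age in cluster 4 with DESeq2 (-0.81) and Klf6 between phases from Seurat scoring (-0.30). Of the 28 lost calls, 19 came without the replicate block, where 0 of 7 members, 0 class and member pairs and 0 genes were called with age (1103 at unadjusted p below 0.05). Facility letters pair the pools, and fits between gates, phases and classes block on the pool. Genes called with age over whole pools numbered 543 with DESeq2 and 774 with no filter on low counts, and between phases 1 member (Nr4a1, which the phase calls read, not counted) was called with DESeq2. The immediate-early class left out in 1 alternative was found at resolution 0.8 only (1350 cells), since no class took that name at the resolution used. The effect of free RNA and of doublets was not tested.

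With 1 pool left out, fits over whole pools or single classes had no block and assumed the lone pool to vary like the others. Members called with age then numbered 0 to 4, class and member pairs 0 to 31, differences between classes 0 to 7 and genes 0 to 287. Log2 fold changes with age ran from -2.46 to 5.39 for Klf2, -0.60 to 4.29 for Klf4, -0.76 to 1.13 for Klf10 and -1.01 to 0.74 for Klf13. Between gates they ran from -0.19 to 1.04 for Nr4a2 and -1.53 to 0.71 for Klf4. Between phases they ran from -1.25 to 0.0022 for Klf2, -1.17 to 0.56 for Klf4 and -0.076 to 0.45 for Klf6. Within cells of 1 kind, the age difference of Klf2 ran from -3.02 to 6.15 in cluster 1, -2.38 to 6.34 in cluster 3, -7.59 to 4.53 in cluster 4 and -2.53 to 6.27 in the stem-type gate, that of Klf4 from -1.15 to 3.97 in cluster 1 and -1.68 to 3.96 in rep-like cells, and that of Nr4a1 from -0.49 to 4.50 in cluster 4. The Cd48 gate difference of Klf4 ran from -2.96 to 2.17. Leaving out aged pool A gave the lowest of these values, except between phases and for the Cd48 difference, where it gave the highest.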

Other observations

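The pL1-like class, 9 to 44 cells per pool led by Cxcr6, Il7r and Trbc2, genes of T and innate lymphoid cells, was too small for the tests and the order of classes. Enough immediate-early markers were also raised in this class to pass the marker count of that list. Its levels of 3 Klf genes were above those of the whole pool in every pool. In young B and aged B these levels rest on few UMIs, 2 and 3 for Klf2, 6 and 5 for Klf4 and 21 and 10 for Klf6. Klf4 was at 116.8, 26.8, 181.7 and 67.8 CPM in young A, young B, aged A and aged B (log2 difference from the pool 3.73 ± 1.45, SD, n = 4), Klf2 at 123.9, 8.92, 383.5 and 40.7 CPM (2.499 ± 1.16) and Klf6 at 145.1, 93.7, 383.5 and 135.6 CPM (1.58 ± 0.07). The difference of Klf6 from its pool had the smallest spread of the 3. Klf13 was at 0 CPM in the 9 cells of aged pool B and Nr4a1 was seen in this class in aged pool A only.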
